A study of Harpegnathos saltator with 22 samples.

Results

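The genes described here are apolpp (LOC105186170) and Apoltp (LOC105188529), 2 of the 13693 genes in the authors' deposited table, and they were chosen by gene ID as the lipid carrier genes of the haemolymph and followed through all 3 of its comparisons. The ants were Harpegnathos saltator, in which gamergates are workers that have mated and reproduce. Each of 22 mature ants had been injected in the head with siRNA, and polyadenylated RNA of its ovaries was sequenced 24 h later. The groups were workers given Kr-h1 siRNA (4 ants), workers given GFP siRNA (5), gamergates given Kr-h1 siRNA (7) and gamergates given GFP siRNA (6). The GFP siRNA is the control, so no group is uninjected. Each ant gave 1 library, and the labels name no genotype, age, colony or batch.

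In insects, lipids move through the haemolymph on lipophorin, a lipoprotein whose protein scaffold is made from apolipophorin, the product of apolpp. In the fruit fly, apolipophorin is made in the fat body, is loaded with lipid in the endoplasmic reticulum by the transfer protein Mtp, and carries diacylglycerol, phospholipid and sterol to tissues that include the ovary, where growing oocytes store them. Apoltp encodes the scaffold of the lipid transfer particle, a second haemolymph lipoprotein. In the fly, that particle is also made in the fat body and moves lipid between tissues and lipophorin. Kr-h1 is a zinc-finger transcription factor that acts downstream of juvenile hormone.

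The deposited table holds no values per ant. Each comparison has 4 columns there: the mean normalized count over the ants compared, the fold change on the log2 scale, its p-value and that p adjusted for multiple tests. Mean levels per group were therefore solved from the mean count, the fold change and the numbers of ants, and are called implied means. Standard errors (SE) were recovered from each fold change and its p-value, and a gene counts as called where the deposited adjusted p was under 0.05. The depth of each library is unknown, and the labels do not say whether the ants came from separate colonies or batches. In these whole ovaries, fewer cells of a type and less RNA per cell cannot be told apart. For the targeted gene Kr-h1, the authors' deposited table lists 0.26 on the log2 scale in gamergates (DESeq2 adjusted p = 0.734) and -0.48 in workers (DESeq2 adjusted p = 0.706), and neither was called.

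apolpp differed widely in level between the groups. Its implied mean was 3638 normalized counts in workers with Kr-h1 siRNA, against 7518 in workers with GFP siRNA. In gamergates it was 2684 normalized counts with Kr-h1 siRNA, against 1033 with GFP siRNA. The 2 control groups thus held the highest and the lowest level, and both Kr-h1 groups lay between them. The implied mean of Apoltp was higher in gamergates than in workers with either siRNA. Its implied mean was 981 normalized counts in Kr-h1 workers, against 951 in GFP workers. In gamergates it was 1778 with Kr-h1 siRNA, against 1766 with GFP siRNA. The worker and gamergate values come from comparisons that the authors normalized separately. Over 8272 genes with a mean above 100 in the caste comparison, the same control group had a median ratio between its implied mean in the knockdown comparison and that in the caste comparison of 0.929 for workers and 1.02 for gamergates.

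**Figure D1:**
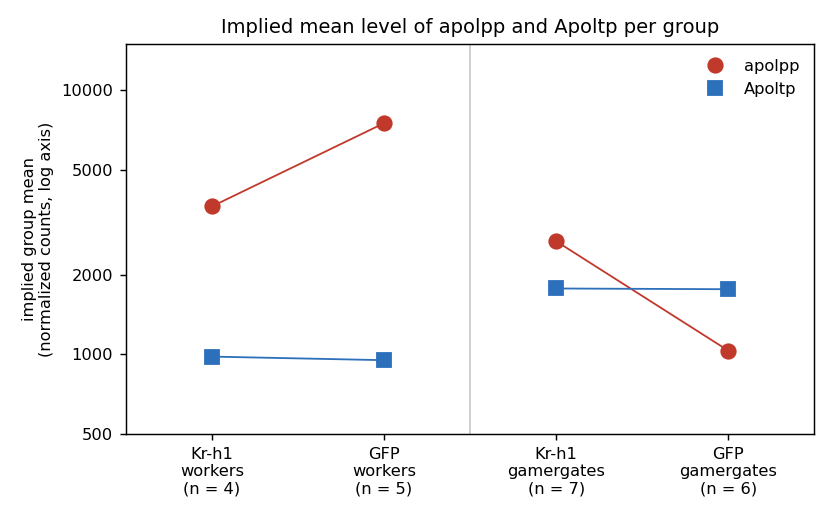
Implied mean level of apolpp (circles) and Apoltp (squares) in each of the 4 groups, in normalized counts on a log axis, with the number of ants under each group and lines joining the groups of 1 caste. There are no error bars because no values per ant are used, and the apolpp change in workers was not called. apolpp stands at 7518 in GFP workers and 1033 in GFP gamergates, with the Kr-h1 groups at 3638 and 2684 between them, while Apoltp stands at 981 and 951 in the worker groups and at 1778 and 1766 in the gamergate groups.

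In gamergate ovaries, apolpp rose after Kr-h1 siRNA and Apoltp was not called. For apolpp the authors' deposited table lists a log2 change of 1.38, or 2.60-fold (recovered SE 0.41, 95% interval 0.58 to 2.17, DESeq2 adjusted p = 0.0121). In that comparison 14.8% of all tested genes were called (1654 of 11145), 8.95% of them higher and 5.9% lower. Among the 3546 tested genes with a mean of at least 1000, only 5 had a larger log2 fold change than apolpp. Apoltp is listed at 0.01 in the authors' deposited table (95% interval -0.21 to 0.23, recovered SE 0.11, DESeq2 adjusted p = 0.966). On the linear scale that interval runs from 0.862-fold to 1.17-fold, so a change in Apoltp as large as that of apolpp lies outside it.

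In worker ovaries, neither carrier gene was called after Kr-h1 siRNA, but the precision for the 2 genes differed greatly. The authors' deposited table lists apolpp at -1.05 on the log2 scale (recovered SE 1.01, DESeq2 adjusted p = 0.545). Its 95% interval ran from -3.02 to 0.92, which holds both an 8.10-fold lower and a 1.90-fold higher level. With that SE, a change would have had to reach 3.05 on the log2 scale to be called. Apoltp stands at 0.05 in the authors' deposited table (95% interval -0.46 to 0.55, recovered SE 0.26, DESeq2 adjusted p = 0.932). Called genes made up 4.92% of the 10577 tested in workers, 2.23% higher and 2.69% lower.

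Between castes, with GFP siRNA in both, the carrier genes were called in opposite directions. apolpp was higher in workers than in gamergates, with a log2 value of 3.03 in the authors' deposited table, or 8.18-fold (95% interval 1.57 to 4.49, recovered SE 0.75, DESeq2 adjusted p = 1.72e-04). Apoltp was lower in workers, at -0.75 in the authors' deposited table (95% interval -1.16 to -0.33, recovered SE 0.21, DESeq2 adjusted p = 0.00133), which makes its level 1.68-fold higher in gamergates. Calls were common in this comparison: 53.2% of the 12338 tested genes passed, 27.2% higher and 26% lower in workers. Increases as large as that of apolpp were less common. Of 3326 tested genes whose mean reached 1000, 30 had a larger log2 fold change of workers over gamergates. Counting both directions, 33 of the 500 tested genes nearest to apolpp in mean count had a larger absolute log2 fold change.

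**Figure D2:**
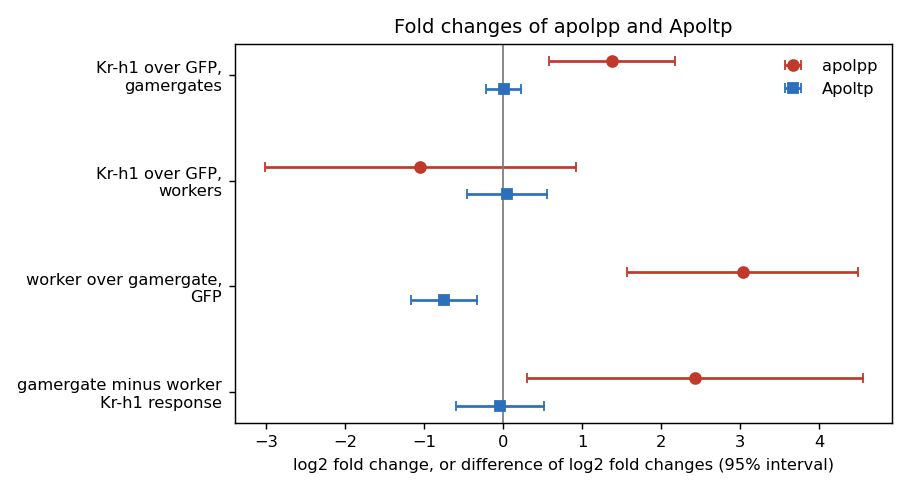
Log2 fold changes of apolpp (circles) and Apoltp (squares) in the 3 deposited comparisons, and the gamergate minus the worker response to Kr-h1 siRNA in the lowest row, with 95% intervals from the recovered SEs. The apolpp intervals clear 0 in gamergates and between castes and span -3.02 to 0.92 in workers, whereas Apoltp clears 0 between castes only.

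The estimated caste difference of apolpp was smaller among ants given Kr-h1 siRNA, but the test of that change did not pass. Adding the deposited fold changes gives a worker over gamergate ratio of 1.52-fold after Kr-h1 siRNA, against 8.18-fold with GFP siRNA. No deposited comparison sets the 2 Kr-h1 groups against each other, so the ratio of 1.52 has no test. The change in the ratio equals the difference of the 2 knockdown responses, gamergate minus worker, which was 2.42 on the log2 scale for apolpp (SE 1.08, 95% interval 0.30 to 4.55). Its unadjusted p was 0.0254 in a z test on the recovered SEs of the authors' DESeq2 results, and its adjusted p over 10453 genes was 0.121. In that test 10.5% of genes were called, 5.19% more positive in gamergates and 5.27% more positive in workers. For Apoltp the difference was -0.04 (SE 0.28, 95% interval -0.59 to 0.52, adjusted p = 0.948 in the same test of the DESeq2 results). Its worker over gamergate ratio was 0.611 after Kr-h1 siRNA and 0.596 with GFP siRNA. The caste comparison shares its GFP ants with both knockdown comparisons, so its values and theirs are not independent.

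apolpp was among the most variable genes for its level. In workers its recovered SE was 5.05 times the median of the 500 tested genes nearest to it in mean count, and 3 of those 500 had a larger SE. In gamergates it was 4.41 times the median, with 21 of 500 larger, and between castes 5.00 times, with 14 of 500 larger. Apoltp stood nearer to other genes but also above their median, at 1.56 times that of its own 500 neighbours in workers (28 of 500 larger), 1.27 times in gamergates (132 of 500 larger) and 1.53 times between castes (60 of 500 larger). The values used here do not show whether a few ants or all of them account for the spread of apolpp.

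**Figure D3:**
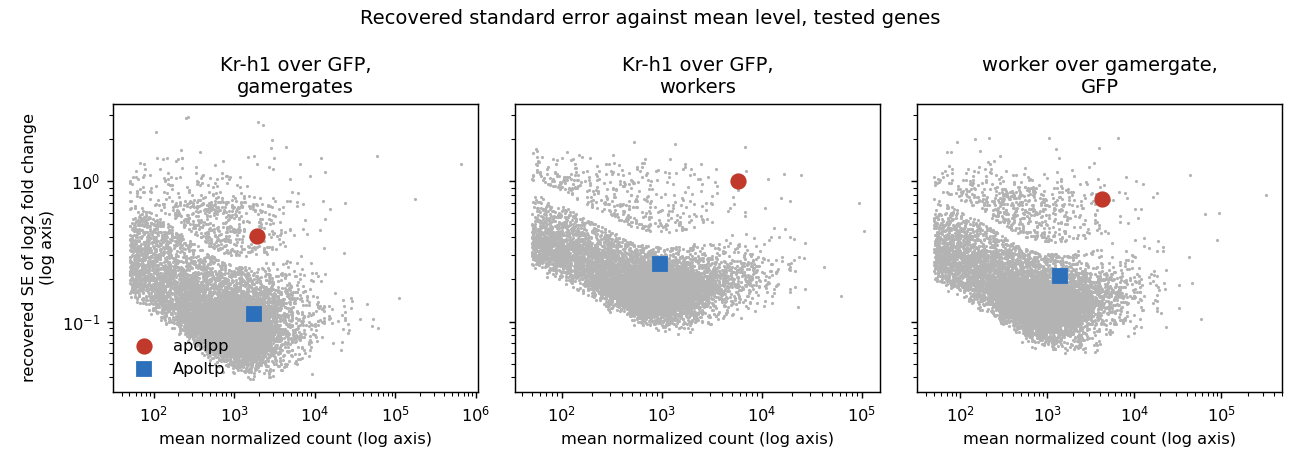
Recovered SE of the log2 fold change against mean normalized count, both on log axes, for tested genes with a mean of at least 50 (grey points), in the 3 comparisons. apolpp (circle) lies in the upper band of points in every panel, at an SE of 0.41 in gamergates and 1.01 in workers, and of 0.75 between castes, and Apoltp (square) lies in the lower band, toward its upper edge in workers and between castes.

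Of the other 3 lipid carriers, Vhdl was called and Mtp and fabp were not. Of the 5 carrier genes found by symbol, apolpp and Vhdl rose in gamergates after Kr-h1 siRNA, and the list median was 0.22 on the log2 scale, against 0.00 for all tested genes. The called shares were 40% in gamergates, 0% in workers and 60% between castes, with apolpp and Apoltp included. Of all tested genes, 14.8%, 4.92% and 53.2% were called. Vhdl, named after a very high density lipoprotein of the haemolymph, stood at 0.92 in the authors' deposited table (DESeq2 adjusted p = 0.0204), with implied means of 53.0 normalized counts in Kr-h1 gamergates and 28.0 in GFP gamergates. For Vhdl the authors' deposited table also lists -0.79 in workers (DESeq2 adjusted p = 0.180) and 1.56 between castes (DESeq2 adjusted p = 1.83e-08). Its 3 fold changes have the signs of those of apolpp, though neither gene was called in workers. Mtp, the transfer protein that loads lipid onto apolipophorin, is listed in the authors' deposited table at 0.22 in gamergates and 0.20 in workers, and at -0.16 for workers over gamergates. None of these was called. fabp, an intracellular fatty acid carrier, was not called either, with values of -0.13, 0.51 and -0.10 in the same order in the authors' deposited table.

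Calls among receptors of the lipoprotein receptor families were single genes in each direction or pairs, and the lipophorin receptors themselves are not analysed here. Of 6 genes on the receptor list, 2 rose in gamergates (list median 0.18), 1 fell in workers (median -0.24) and 1 was higher and 1 lower in workers than in gamergates (median -0.07). The called shares were 33.3%, 16.7% and 33.3% of 6 genes, against 14.8%, 4.92% and 53.2% of all tested genes, whose medians were 0.00, 0.01 and 0.05. yl, the vitellogenin receptor gene of the oocyte, was lower in workers than in gamergates in the authors' deposited table (-1.07, DESeq2 adjusted p = 3.06e-04). After Kr-h1 siRNA it was not called, at 0.04 in gamergates and 0.66 in workers in the authors' deposited table. mgl, the endocytic receptor megalin, fell in Kr-h1 workers in the authors' deposited table (-1.19, DESeq2 adjusted p = 0.0177) and stood at 0.15 in gamergates, where it was not called. The genes that rose in gamergates were arr, a Wnt co-receptor of the same family (0.26), and Nrg, a cell adhesion gene that is no lipoprotein receptor (0.21), in the authors' deposited table.

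The called share of lipid storage and breakdown genes stood near that of all genes between castes, at 64.3% against 53.2%. Of 14 storage and lipolysis genes, 0 were called after Kr-h1 siRNA in either caste in the authors' deposited table (DESeq2). Of all tested genes, 14.8% were called in gamergates and 4.92% in workers. At an unadjusted p under 0.05, 1 of the 14 was higher and 1 lower in each caste. Between castes, 4 were higher and 5 lower in workers. Lsd-1, a perilipin that coats lipid droplets, was higher in workers, at 3.56 in the authors' deposited table (DESeq2 adjusted p = 7.44e-08, recovered SE 0.62), the only gene of that list with a fold change in the range of apolpp. Its implied mean was 170 normalized counts in GFP workers and 16.1 in GFP gamergates. Agpat1, an acyltransferase of glycerolipid synthesis, was lower in workers in the authors' deposited table (-1.30, DESeq2 adjusted p = 1.04e-10).

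Of 14 genes of fatty acid synthesis and uptake, 3 rose and 1 fell in gamergates after Kr-h1 siRNA. In the authors' deposited table, FASN1, the fatty acid synthase, stood at 0.44 (DESeq2 adjusted p = 0.0353), the acetyl-CoA carboxylase ACC at 0.33 (adjusted p = 0.0417) and the ATP citrate lyase ATPCL at 0.25 (adjusted p = 0.0436). The called share was 28.6%, against 14.8% of all tested genes. AcCoAS, the acetyl-CoA synthetase, was the gene that fell (-1.08 in the authors' deposited table, DESeq2 adjusted p = 0.0202). The list median was 0.15. In workers 0 of the 14 were called by DESeq2 in the authors' deposited table, and at p under 0.05 without adjustment 1 was higher and 1 lower. Between castes 3 were higher and 4 lower in workers, 50% against 53.2% of all tested genes, among them the elongase gene bond, which was lower (-5.32 in the authors' deposited table, DESeq2 adjusted p = 9.54e-20). Of 14 fatty acid oxidation genes, 2 fell in gamergates, the hydratase Echs1 (-0.69) and the thiolase yip2 (-0.27) in the authors' deposited table. The share that fell was 14.3%, against 5.9% of all tested genes. In gamergates 10 of the 14 were negative (list median -0.18). At p under 0.05 before adjustment, 1 was higher and 7 were lower there. The shares of all tested genes that were negative, or passed before adjustment, were not computed, so these counts have no baseline. In workers DESeq2 called 0 of the 14, with 1 higher and 1 lower at p under 0.05 before adjustment. Between castes 1 was higher and 5 lower in workers, 42.9% against 53.2% of all genes.

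In the fly, lipophorin also carries lipid-linked Hedgehog and Wnt proteins and is held at cell surfaces by heparan sulfate proteoglycans. Of 15 genes for these morphogens, their receptors and the proteoglycans, 5 rose in gamergates after Kr-h1 siRNA and 0 fell, with a list median of 0.21. The share that rose was 33.3%, against 8.95% of all tested genes. In the authors' deposited table they included the glypican genes dally (0.40, DESeq2 adjusted p = 8.03e-05) and dlp (0.45, DESeq2 adjusted p = 4.64e-04). The Wnt receptor gene fz2 (0.71) and the Hedgehog receptor gene ptc (0.42) were the next by adjusted p in the deposited table. In workers DESeq2 called 0 of the 15, with 0 higher and 2 lower at p under 0.05 before adjustment, and the median of the list was -0.13. The unadjusted counts have no baseline over all tested genes. Between castes 7 were higher in workers and 1 lower, 53.3% against 53.2% of all genes, and fz2 stood at 2.07 in the authors' deposited table (DESeq2 adjusted p = 1.75e-19).

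Apolipophorin is a secreted protein. The median of the secretory route genes had the opposite sign to the value of apolpp in gamergates after Kr-h1 siRNA and between castes. Of 19 such genes, 7 fell in gamergates after Kr-h1 siRNA and 0 rose (list median -0.24). The share that fell was 36.8%, against 5.9% of all tested genes. In the authors' deposited table the channel gene of the endoplasmic reticulum Sec61alpha stood at -0.70 (DESeq2 adjusted p = 0.00157) and KdelR, the receptor that returns resident proteins to that compartment, at -0.51 (DESeq2 adjusted p = 1.47e-04). In workers 1 rose, the chaperone gene Gp93 (0.88 in the authors' deposited table, DESeq2 adjusted p = 0.0262). The called share there was 5.26%, against 4.92% of all tested genes. The list median was 0.07, against 0.01 for all tested genes, with 11 values positive and 8 negative. The apolpp interval in workers spans 0, so no sign is compared there. Between castes 14 were lower and 1 higher in workers (median -0.66), and the lower share was 73.7%, against 26% of all tested genes. The chaperone gene Hsc70-3 was lower in workers at -1.56 in the authors' deposited table (DESeq2 adjusted p = 2.75e-22), as was Gp93 at -1.72 (DESeq2 adjusted p = 6.96e-20). Of 13 insulin and adipokinetic hormone pathway genes, which act in the control of fat stores, 5 rose in gamergates (median 0.21), 1 rose in workers (median 0.14), and 2 were higher and 4 lower in workers than in gamergates (median 0.09). The called shares were 38.5%, 7.69% and 46.2%, against 14.8%, 4.92% and 53.2% of all tested genes. They included Pi3K21B, a subunit of the insulin pathway kinase, at 0.51 in gamergates in the authors' deposited table (DESeq2 adjusted p = 3.49e-05), and ImpL2, an inhibitor of insulin signalling in the fly, at -2.79 between castes (DESeq2 adjusted p = 1.16e-22). The translation repressor gene Thor was the one that rose in workers (0.48 in the authors' deposited table, DESeq2 adjusted p = 0.0478), and with adjustment over all genes with a p-value 0 genes of that list were called in workers.

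Fat body markers mostly had the signs of the apolpp estimates, of which the one in workers had an interval spanning 0. Their called shares were near those of all genes after Kr-h1 siRNA, and the defining markers were low. Of 15 fat body genes, which include Vhdl, 12 were positive in gamergates after Kr-h1 siRNA and 2 of them rose (list median 0.17). In workers 11 of 14 tested were negative and 1 of them fell (median -0.35). Between castes 11 of 14 were positive, and 5 were higher in workers and 1 lower (median 0.57). The called shares were 13.3% in gamergates, 7.14% in workers and 42.9% between castes, against 14.8%, 4.92% and 53.2% of all tested genes. The medians of all tested genes were 0.00, 0.01 and 0.05. The share of positive values over all tested genes was not computed. Their summed implied means were 19818 normalized counts in Kr-h1 workers against 28756 in GFP workers, and 19563 in Kr-h1 gamergates against 17941 in GFP gamergates, the same order of groups as for apolpp. That order was lost without Tsf1 and also without Gnmt. Without Tsf1 the sums were 14583 in Kr-h1 workers against 18020 in GFP workers, and 16494 in Kr-h1 gamergates against 16400 in GFP gamergates, so that Kr-h1 workers were lowest. Without Gnmt the sum was 18618 in Kr-h1 workers, below the 18728 in Kr-h1 gamergates. The hexamerins are storage proteins of the insect fat body. Hex110 had implied means of 12.6 normalized counts in Kr-h1 workers, 13.7 in GFP workers, 7.99 in Kr-h1 gamergates and 3.45 in GFP gamergates. Hex70a had 2.63 in Kr-h1 workers, 18.8 in GFP workers, 53.6 in Kr-h1 gamergates and 13.6 in GFP gamergates. Neither was at 0 in any group. Hex70c fell in Kr-h1 workers (-2.70 in the authors' deposited table, DESeq2 adjusted p = 0.0361). Its implied means were also low, at 3.35 in Kr-h1 workers, 21.7 in GFP workers, 27.1 in Kr-h1 gamergates and 8.31 in GFP gamergates. Tsf1, a transferrin that carries iron in the haemolymph, rose in gamergates (0.99 in the authors' deposited table, DESeq2 adjusted p = 0.0299). In the authors' deposited table it stood at -1.04 in workers and 2.97 between castes, with no p-value in either.

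**Figure D4:**
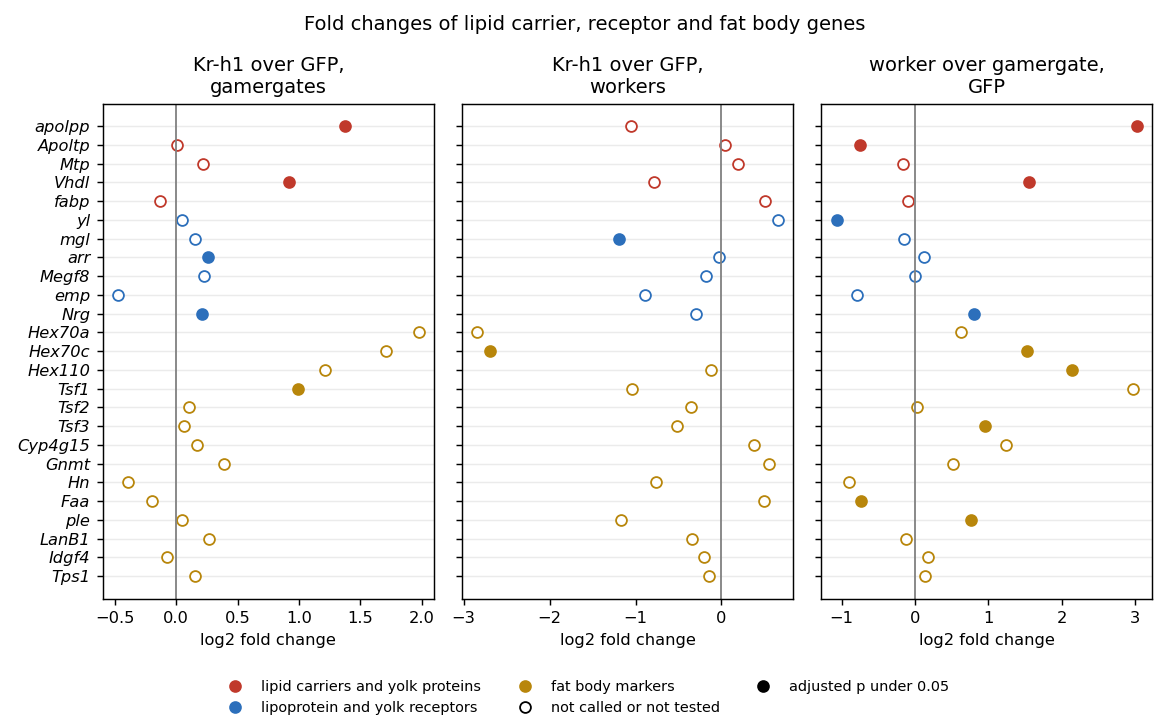
Log2 fold changes of the carrier genes (red), receptor genes (blue) and fat body markers (gold) in the 3 deposited comparisons, with filled points for genes at an adjusted p under 0.05 and open points for the others. apolpp, Vhdl and Tsf1 lie to the right of 0 in gamergates and between castes and to the left of 0 in workers, while Apoltp lies at 0.01 and 0.05 after Kr-h1 siRNA.

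Muscle marker sums followed the order of the apolpp estimates over the 4 groups with any 1 of the 16 genes left out, and haemocyte sums did so through 1 gene. That order is itself uncertain, because the apolpp interval in workers spans 0 and the ratio between the Kr-h1 groups has no test. All genes were measured in the same ants, so leaving out a gene does not show how the order varies between ants. The 16 muscle genes had a summed implied mean of 23099 normalized counts in Kr-h1 workers against 36530 in GFP workers, and 18023 in Kr-h1 gamergates against 16567 in GFP gamergates. Of these 16, 4 rose in gamergates (25%, against 8.95% of all tested genes), and 12 were higher and 1 lower in workers than in gamergates (75% higher, against 27.2%). In workers after Kr-h1 siRNA, DESeq2 called 0 of them, with 1 higher and 6 lower at p under 0.05 before adjustment. The share of all tested genes before adjustment was not computed. The 4 that rose in gamergates were Mef2, Lmpt, Msp300 and tmod, and over the list 10 values there were positive and 6 negative. The myosin heavy chain gene Mhc, their defining marker, had implied means of 1168 in Kr-h1 workers, 2824 in GFP workers, 705 in Kr-h1 gamergates and 411 in GFP gamergates. After Kr-h1 siRNA Mhc was not called in gamergates (DESeq2 adjusted p = 0.179) or in workers (DESeq2 adjusted p = 0.171) in the authors' deposited table. The 7 haemocyte genes summed to 11388 in Kr-h1 workers against 17115 in GFP workers, and to 10207 in Kr-h1 gamergates against 9565 in GFP gamergates, but their defining marker Hml was lowest in workers, at 291 with Kr-h1 siRNA and 337 with GFP siRNA, against 428 with Kr-h1 siRNA and 505 with GFP siRNA in gamergates. Without Fer1HCH, the ferritin heavy chain gene, the other 6 summed to 2493 in Kr-h1 workers against 3747 in GFP workers, and to 4373 in Kr-h1 gamergates against 4320 in GFP gamergates, so that both gamergate groups lay above both worker groups. Of those 7, 1 rose in gamergates (14.3%) and 1 fell in workers (14.3%). Between castes 4 were higher and 2 lower in workers (85.7% called). The nerve list of 20 genes summed to between 6987 and 7863 in the 4 groups. Of these, 5 rose and 0 fell in gamergates (25% called), 1 of 16 tested fell in workers (6.25%), and 9 were higher and 6 lower in workers than in gamergates (75%). The germline marker vas was present throughout, at 7375 in Kr-h1 workers, 7632 in GFP workers, 6915 in Kr-h1 gamergates and 6316 in GFP gamergates. Of 9 germline genes, 2 rose in gamergates (22.2%), and 4 were higher and 2 lower in workers than in gamergates (66.7%). In workers after Kr-h1 siRNA DESeq2 called 0 of these 9, with 2 higher and 0 lower at p under 0.05 before adjustment. Of the eggshell and follicle cell genes, 3 rose and 3 fell among 11 tested in gamergates after Kr-h1 siRNA (54.5% called), 0 rose and 5 fell among 13 in workers (38.5%), and 3 were higher and 6 lower in workers among 12 between castes (75%). Of 8 trachea and cuticle genes, 2 fell in gamergates (25%), 1 of 7 tested fell in workers (14.3%), and 3 were higher and 2 lower in workers than in gamergates (62.5%). Of all tested genes, 14.8%, 4.92% and 53.2% were called in these comparisons. The part of these tissues in the apolpp result was not tested.

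The 2 carriers were far apart in pattern, and each had close neighbours among other genes. Likeness was measured as the Euclidean distance between log2 group means centred over the 4 groups, for 3672 other genes with a descriptive symbol and a mean of at least 50 in all comparisons. For apolpp the nearest genes were tau, a microtubule-associated protein (distance 0.26), the inositol oxygenase gene Miox (0.27), pot, an apical membrane protein of epithelia in the fly (0.28), Tsf1 (0.31) and the peptidase family gene Ance-3 (0.32), against a median distance of 2.22. Miox is listed in the authors' deposited table at 1.54 in gamergates and -1.37 in workers, and at 3.37 for workers over gamergates. The same 3 values for pot were 1.21, -1.24 and 2.84 in the authors' deposited table. For Apoltp the nearest were Pgm1, a phosphoglucomutase (0.04), RanBPM (0.04), Uggt, a glucosyltransferase of glycoprotein folding (0.04), MED23, a Mediator subunit (0.05), and the DNA polymerase gene DNApol-eta (0.06), against a median of 0.77. The distance between apolpp and Apoltp was 2.83, and Apoltp ranked 3353 of 3672 by nearness to apolpp. These genes were picked for their likeness, so their values are a description of 4 group means that share the control ants.

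**Figure D5:**
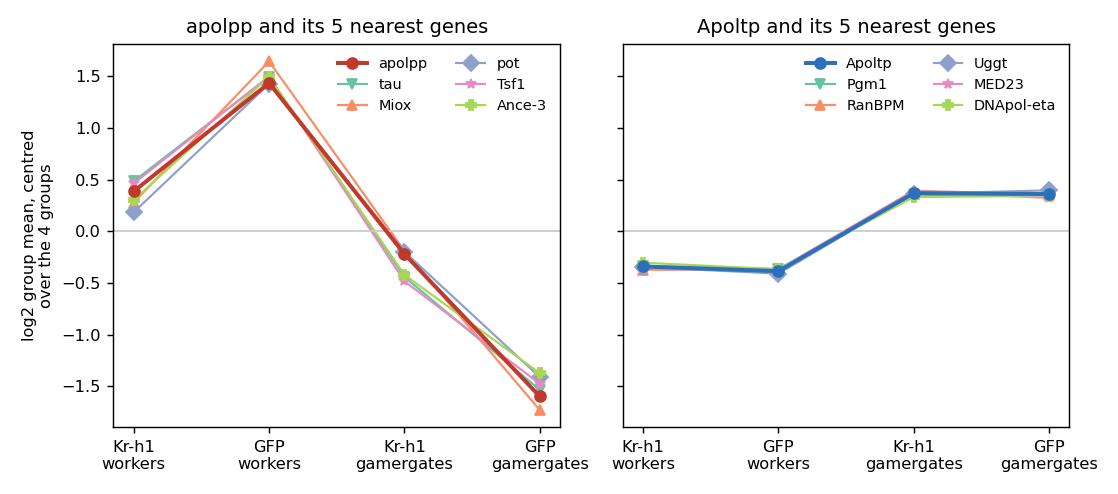
Log2 implied group means centred over the 4 groups for apolpp and its 5 nearest genes (left) and for Apoltp and its 5 nearest genes (right), with 1 line per gene. The apolpp set is highest in GFP workers and lowest in GFP gamergates, with both Kr-h1 groups between, and the Apoltp set splits by caste. The points are estimates shown without intervals.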

How the data were processed

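Ovary RNA of 22 ants was sequenced, and the labels' caste and knockdown fields give the 4 groups. Tools listed in the submitters' processing notes are featureCounts, STAR, bcl2fastq and DESeq2. No version, genome build, strand setting or model formula is given in the sources used here, so no coordinates are given. The authors' deposited table gives mean normalized counts, log2 fold changes, p-values and adjusted p-values for 3 comparisons of 13693 genes, and no values per ant, so the planned count model was replaced by the deposited results. A positive log2 value means a higher level in the Kr-h1 group, and in workers for the caste comparison. Adjusted p was missing for genes of low mean and for some others, which count as not tested.

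Gene IDs were matched to RefSeq symbols of Hsal_v8.6 (13681 IDs matched, 4117 with a descriptive symbol). The SE was taken as the fold change over the normal quantile of its p (scipy 1.17.1), which assumes a Wald test. The difference of responses was a two-sided z test over all genes, adjusted by Benjamini-Hochberg and checked on simulated data. For list counts of signs, or at an unadjusted p under 0.05, no share over all tested genes was computed. The members and the 15 gene lists were chosen with earlier results of these data known. From the lists, 6 symbols taken to name other genes were left out after their values had been seen. Among them was vg, which may stand for vestigial or for vitellogenin, so a yolk protein gene may have been left out. Named genes are the members, Kr-h1, the carrier and receptor lists and the 5 nearest genes per member. Up to 4 called genes per comparison were added from each lipid, morphogen, insulin, secretory route and fat body list. Other genes that the text mentions, such as the defining marker Mhc, are outside this set.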

Additional observations from a re-analysis of the deposited data

Results flagged for a closer look

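For 16 of 64 named genes with a test, the response to Kr-h1 siRNA differed between gamergates and workers in the z test on the recovered SEs of the DESeq2 results, adjusted over 10453 genes, of which 10.5% passed. Most named genes were picked for a call in one of the comparisons or for likeness to apolpp, so a higher share among them is built in. Genes mentioned only as cell type markers, such as Mhc, were not in this set, and their differences are not given here. The values that follow are gamergate minus worker log2 fold changes. The carrier and fat body genes were Vhdl (1.71, adjusted p = 0.00899) and Hex70c (4.40, adjusted p = 0.00471). The Hex70c value rests on low counts, with implied means from 3.35 in Kr-h1 workers to 27.1 in Kr-h1 gamergates, and has an SE of 1.14. Among the genes nearest to apolpp in pattern, and picked for that pattern, were Miox (2.91, adjusted p = 8.20e-06), pot (2.45, adjusted p = 9.12e-05) and tau (2.10, adjusted p = 0.0467). The difference for apolpp, 2.42, was of similar size but did not pass. Of the morphogen and proteoglycan list, fz2 (1.39, adjusted p = 0.00125), the Hedgehog pathway transcription factor ci (1.75, adjusted p = 0.00343) and dlp (0.62, adjusted p = 0.0420) passed. In the secretory route, Gp93 (-1.18, adjusted p = 0.00313), Sec61alpha (-0.95, adjusted p = 7.67e-04), Hsc70-3 (-0.85, adjusted p = 0.0141) and the chaperone gene Calr (-0.73, adjusted p = 0.0295) passed with a negative difference. Pi3K21B (0.73, adjusted p = 0.0312) and Thor (-0.58, adjusted p = 0.0379) passed in the insulin list. The protease gene S2P, which activates the lipid regulator SREBP, had -0.55 (adjusted p = 0.0371), and the acyl-CoA dehydrogenase gene Arc42 had -0.50 (adjusted p = 0.0480).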

How the results depend on the processing

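The calls of apolpp and Apoltp kept their side of the threshold under every alternative run: adjustment over all genes with a p-value or over genes with a mean of at least 50, subtraction of the median or of a running median over 500 genes of similar mean, and, for the difference of responses, a t quantile. The apolpp rise in gamergates stayed at 1.38 on the log2 scale (adjusted p from 0.0102 to 0.0137), its caste difference from 2.90 to 3.03 (adjusted p from 1.45e-04 to 3.48e-04), and its difference of responses from 2.42 to 2.49 (adjusted p from 0.1002 to 0.1254). With the running median subtracted, 3 Apoltp values near 0 changed sign: -3.93e-05 in gamergates, -0.10 in workers and 0.10 for the difference of responses. The sign turns because the running median, 0.01 in gamergates and 0.14 in workers, exceeds each of the first 2 values. The difference of those medians lies below the third. With the caste comparison as source, the implied mean of apolpp was 8252 in GFP workers and 1009 in GFP gamergates. That alternative for gamergates was chosen after seeing the data. The marker sums without 1 gene were also added after seeing the data: any 1 gene left out kept the order of groups for muscle, while it was lost without Tsf1 or Gnmt for fat body and without Fer1HCH for haemocytes. Of 135 list counts under another threshold or adjustment, 98 stayed within 1.5 times. No paired analysis was possible because the table holds no values per ant, and for the same reason no ant could be left out. Unknown depth and the spread of apolpp in workers limit what can be said there.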
